A study of Mus musculus with 6 samples.

Results

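The genes described here are the members of the mouse cytochrome P450 families 2, 3 and 4. They were chosen by name alone, as the genes whose symbol is Cyp, a family number from 2 to 4, a subfamily letter and a gene number, with pseudogenes left out. The array holds 68 such genes on 88 probes, of 20284 named genes on 26762 probes. At least 1 probe was well above background on at least 1 array for 61 of the 68 genes, and for 17644 of all named genes. The 7 genes below background everywhere were *Cyp2ab1*, *Cyp2c65*, *Cyp2c66*, *Cyp2t4*, *Cyp2w1*, *Cyp4f37* and *Cyp4x1*. Genes with a further letter in the symbol, such as *Cyp4a12a* and *Cyp3a41b*, fell outside the naming rule.

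RNA came from liver, ovary and uterus of immature females of CD-1, an outbred mouse stock. The control groups received the vehicle, peanut oil, and the BHPF groups received fluorene-9-bisphenol in peanut oil, at 50 mg per kg body weight once daily for 3 days by mouth. The labels give an age of 24 d, and the methods place the first dose on postnatal day 21 and collection on postnatal day 24. Each of the 6 groups was 1 array from 1 pool of 3 mice, so the spread between animals is unknown and a tissue taken alone allows no test. The 6 arrays shared 1 slide and 1 scan, with control and BHPF in different positions, so position and treatment cannot be told apart. Well above background were 61.3% to 74.6% of the 55681 probes per array, and no probe was saturated. Level means here the log2 intensity of a gene minus the 75th percentile of all probes on that array. Repeated spots of 1 probe gave a log2 ratio between arrays an SD of 0.15 to 0.16, which holds only spot noise.

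Cytochrome P450 enzymes of these families are haem proteins of the endoplasmic reticulum, which take electrons from the reductase encoded by *Por* and insert oxygen into drugs, steroids, bile acids and fatty acids. Hepatocytes hold most of the body's activity. Genes of subfamilies 2b, 2c and 3a are known targets of the xenobiotic receptors CAR and PXR, and those of 4a of the fatty acid receptor PPAR-alpha. Bisphenols are themselves substrates of such enzymes. The comparisons ask where each subfamily was expressed and whether its level differed between control and BHPF arrays in each tissue.

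Liver stood far above ovary and uterus for most of the genes. On the control arrays 56 of the 61 members were highest in liver. The median difference between control liver and control ovary was 7.58 on the log2 scale, and that between control liver and control uterus 7.54. Summed over each list, markers of ovary and uterus followed the tissue labels. The ovary marker *Foxl2* alone did not, at 1.27 (control) and 1.43 (BHPF) in liver against 0.71 and 0.73 in ovary. The summed linear level of 8 ovary genes was 44.7 and 46.9 on the ovary arrays against at most 2.86 elsewhere, and that of 8 uterus genes was 21.5 and 22.3 on the uterus arrays against at most 0.876 elsewhere. That of 22 hepatocyte genes was 698 (control) and 665 (BHPF) in liver and at most 13.0 in ovary, and it was 3.90 on the control but 53.7 on the BHPF uterus array. Fewer cells of a type and less RNA per cell cannot be told apart in such tissue samples.

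In the limma fit with tissue and treatment as terms, the error comes from treatment differences that the tissues do not share. Its SE and p values therefore do not measure the spread between animals or pools. In this fit 54 of the 61 members were higher in liver than in ovary at an adjusted p under 0.05, against 34.8% of all genes, and 2 were higher in ovary, against 32.6% of all genes. The median fitted difference was 7.48 for the members and 0.07 for all genes. For liver against uterus, 53 members were higher in liver, against 31.8% of all genes, and 1 was higher in uterus, against 30.5%. The median was 6.66 for the members and 0.04 for all genes. Without the BHPF uterus array, which leaves 1 uterus array and 1 residual degree of freedom, the median was 7.41 for the members and 0.03 for all genes. In all, 53 members passed the test for liver above both other tissues. Subfamily 3a had a median liver excess over ovary of 10.1, 4a of 8.55, 2c of 8.30, 2a of 7.68, 2d of 7.45 and 2b of 6.81, and the medians were smaller in 2j (2.98) and 4f (2.53). Over uterus the order was another, with 7.72 in 2c, 7.46 in 4a, 6.82 in 2b, 6.78 in 3a, 6.62 in 2a and 6.42 in 2d. These fitted medians include the BHPF uterus array. Between the control arrays the medians were 10.05 in 2c, 8.60 in 2a, 8.10 in 4a, 7.93 in 3a, 7.75 in 2b and 7.14 in 2d. Several of these genes, such as *Cyp2c29*, *Cyp2c50* and *Cyp3a16*, were below background on the control uterus array, so the differences hold its background. In 3a, *Cyp3a25*, *Cyp3a44* and *Cyp3a57* were below background on both ovary arrays and *Cyp3a59* on the control one, so the excess of 3a over ovary holds the background of those arrays.

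The largest differences in favour of liver were in genes of drug and fatty acid metabolism. *Cyp2c54*, a fatty acid epoxygenase, had levels of 3.40 (control) and 4.01 (BHPF) in liver and of −7.53 and −6.89 in ovary, a fitted difference of 10.92 (SE 1.15, limma adjusted p = 0.00295). Of its 3 probes 2 were below background on both ovary arrays, and the remaining one read 3.92 and 4.29 in liver and −5.92 and −5.04 in ovary. *Cyp3a57* had a fitted difference of 10.50 over ovary (SE 0.42, limma adjusted p = 0.000471), and *Cyp3a44*, known as female-biased in adult liver, one of 10.44 (SE 1.53, limma adjusted p = 0.00677). Both *Cyp3a* genes were below background on both ovary arrays, so these differences, like that of *Cyp2c54*, hold the background of the array. Over uterus the largest was that of *Cyp2b9*, also female-biased in adult liver, at 9.50 (SE 0.50, limma adjusted p = 0.000735). It was well above background on the liver arrays alone, with levels of 2.18 and 2.50.

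A small group did not follow liver. *Cyp2s1*, an enzyme known from epithelia outside the liver, had levels of 1.64 (control) and 1.70 (BHPF) in ovary, of −0.51 and −0.21 in uterus and of −2.93 and −2.56 in liver. The 3 tissues did not overlap, and liver was the lowest. The fitted difference of liver minus ovary was −4.41 (SE 0.13, limma adjusted p = 0.000395), that of liver minus uterus was −2.38 (SE 0.13, limma adjusted p = 0.000842) and that of ovary minus uterus was 2.03 (SE 0.13, limma adjusted p = 0.00263). *Cyp4f39*, which acts on very long fatty acids in skin, was well above background on the ovary arrays alone, with levels of −3.93 and −4.35, and its fitted difference of liver minus ovary was −3.33 (SE 0.37, limma adjusted p = 0.00336). The other members without a passing difference of liver above both tissues were *Cyp2b19*, *Cyp2b23*, *Cyp2j11*, *Cyp4a29*, *Cyp4f16* and *Cyp4f18*. *Cyp2b19*, known from skin, was nearly flat, between 0.29 and 0.83 on all 6 arrays, although it shares a subfamily with *Cyp2b10*.

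**Figure D1:**
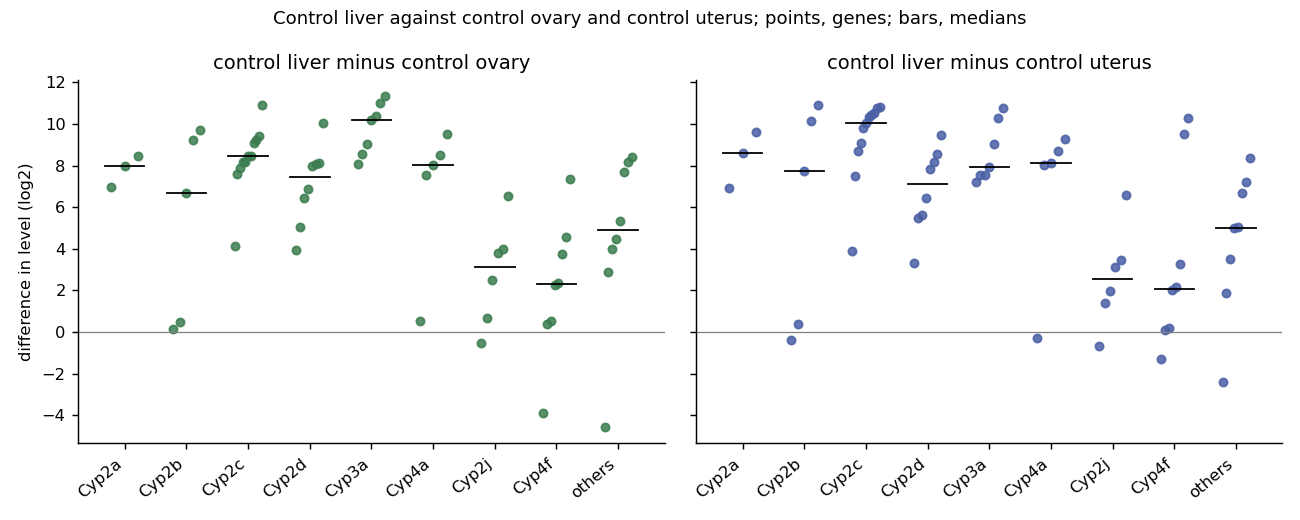
Difference in level on the log2 scale between control liver and control ovary (left) and between control liver and control uterus (right), with 1 point per gene, genes grouped by subfamily and a bar at each median. Subfamilies 2a, 2c, 2d and 3a lie wholly above 0, and 2b, 4a, 2j and 4f each hold genes near or below it, with *Cyp2s1* lowest at −4.57 over ovary.

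Ovary and uterus differed less. The fit called 4 members (6.56%) higher in ovary, against 16.5% of all genes. It called 11 (18.0%) higher in uterus, near the share of all genes, 18.2%. Without the BHPF uterus array these became 11, against 6.38% of all genes, and 3, against 7.12%. Which members were called also changed with that array left out. The 4 called for ovary on all arrays were *Cyp2s1*, *Cyp2u1*, a fatty acid hydroxylase, *Cyp4f15*, an omega-hydroxylase of fatty acids and leukotrienes, and *Cyp4f39*. The 11 called for uterus held *Cyp2c23*, an epoxygenase of arachidonic acid, and *Cyp2f2*, known from lung airways. The others were *Cyp2d11*, *Cyp2d12*, *Cyp2j6*, *Cyp3a25*, *Cyp3a57*, *Cyp3a59*, *Cyp4b1*, *Cyp4f40* and *Cyp4v3*. Of these, *Cyp4f40* was below background in both tissues, and *Cyp3a25* and *Cyp3a57* on both ovary arrays. *Cyp2f2* had levels of −0.14 (control) and 0.77 (BHPF) in uterus and of −3.55 and −3.45 in ovary, and its fitted difference of ovary minus uterus was −3.81 (SE 0.28, limma adjusted p = 0.00322).

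The upstream sequences of 50 of the 61 members were in the RefSeq table of GRCm38.p6, and the 250 bases before each gene start were searched on both strands for short motifs picked after the levels had been seen. The letters CAAAGTCCA, the recognition motif of the hepatocyte receptor HNF4A, were in 0.451% of 27025 genes. They were in 5 of the 34 members with a sequence that were at least 16-fold higher in control liver than in control ovary, and in 0 of the 16 others. The TATA letters TATAAA were in 14.3% of all genes, in 18 of the 34 (52.9%) and in 1 of the 16. The receptor letters AGGTCA were in 15.8% of all genes, in 12 of the 34 (35.3%) and in 3 of the 16, and CCAAT was in 37.5% of all genes, in 15 of the 34 and in 7 of the 16. A match is a run of letters and not a bound site. The 5 genes with CAAAGTCCA, which include neighbours of near-identical sequence, are shown 5′ to 3′ on the strand of the gene, with the motif in capitals, beside *Cyp2s1*, the member lowest in liver relative to ovary, which holds none. In order they are chr19:39649043-39649292, chr19:39741102-39741351, chr19:40187287-40187536, chr5:145879855-145880104, chr5:145469724-145469973 and chr7:25816526-25816775, each on the minus strand of GRCm38.p6.
Cyp2c67: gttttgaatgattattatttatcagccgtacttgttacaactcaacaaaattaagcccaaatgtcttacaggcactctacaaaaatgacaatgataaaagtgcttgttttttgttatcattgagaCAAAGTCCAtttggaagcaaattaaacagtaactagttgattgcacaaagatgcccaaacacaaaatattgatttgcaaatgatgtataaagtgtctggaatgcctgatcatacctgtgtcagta
Cyp2c68: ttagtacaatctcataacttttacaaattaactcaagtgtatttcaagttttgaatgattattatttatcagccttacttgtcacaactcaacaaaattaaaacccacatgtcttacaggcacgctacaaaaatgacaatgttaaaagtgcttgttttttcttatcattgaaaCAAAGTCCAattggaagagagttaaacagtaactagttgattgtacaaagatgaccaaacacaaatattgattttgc
Cyp2c70: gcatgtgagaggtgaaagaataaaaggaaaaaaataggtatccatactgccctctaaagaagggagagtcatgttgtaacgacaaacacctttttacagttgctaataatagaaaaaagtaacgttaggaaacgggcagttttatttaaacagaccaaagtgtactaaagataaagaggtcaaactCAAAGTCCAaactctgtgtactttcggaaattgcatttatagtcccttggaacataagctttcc
Cyp3a11: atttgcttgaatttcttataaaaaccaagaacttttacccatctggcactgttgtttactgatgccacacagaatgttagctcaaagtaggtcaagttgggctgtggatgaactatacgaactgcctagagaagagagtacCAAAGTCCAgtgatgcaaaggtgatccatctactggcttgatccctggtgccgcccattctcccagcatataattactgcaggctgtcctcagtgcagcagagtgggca
Cyp3a16: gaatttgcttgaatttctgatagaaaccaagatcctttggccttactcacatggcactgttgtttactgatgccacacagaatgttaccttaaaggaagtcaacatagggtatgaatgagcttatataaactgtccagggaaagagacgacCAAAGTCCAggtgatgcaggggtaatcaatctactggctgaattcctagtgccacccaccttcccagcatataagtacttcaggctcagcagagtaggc
Cyp2s1: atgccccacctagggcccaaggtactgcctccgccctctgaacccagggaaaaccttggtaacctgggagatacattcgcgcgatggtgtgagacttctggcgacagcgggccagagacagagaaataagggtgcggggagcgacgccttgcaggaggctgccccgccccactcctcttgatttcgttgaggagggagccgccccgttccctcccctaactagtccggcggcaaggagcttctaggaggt

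The members at least 2-fold different between treatments were 1 of 60 evaluated in liver, where 4.74% of all genes were, 1 of 54 in ovary (1.09% of all genes) and 30 of 53 in uterus (3.09% of all genes), each of them higher with BHPF. The direction in uterus follows the labels of the scanner files; in the deposited table of log2 values the control and BHPF columns of the uterus are exchanged relative to those files, so its direction is the opposite, and the files do not settle which label is right. A gene was evaluated in a tissue where either array had a probe well above background, and where that held on 1 array only its ratio is a bound, given as at least. For a difference common to the 3 tissues, the treatment term of the limma fit called 0 members and 0 of 17576 genes (0%) at an adjusted p under 0.05, and the lowest adjusted p of a member was 0.812. At an unadjusted p under 0.05 there were 3 of 61 members higher and 0 lower with BHPF, beside 555 and 311 of the 17576 genes. *Cyp4f40* had the largest common term of these 3, 0.72 (SE 0.09), and was well above background on the liver arrays alone, so its ovary and uterus values are background readings. The same holds for *Cyp4a32* (0.64, SE 0.15). The remaining gene, *Cyp2r1* (0.46, SE 0.14), was well above background on every array.

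**Figure D2:**
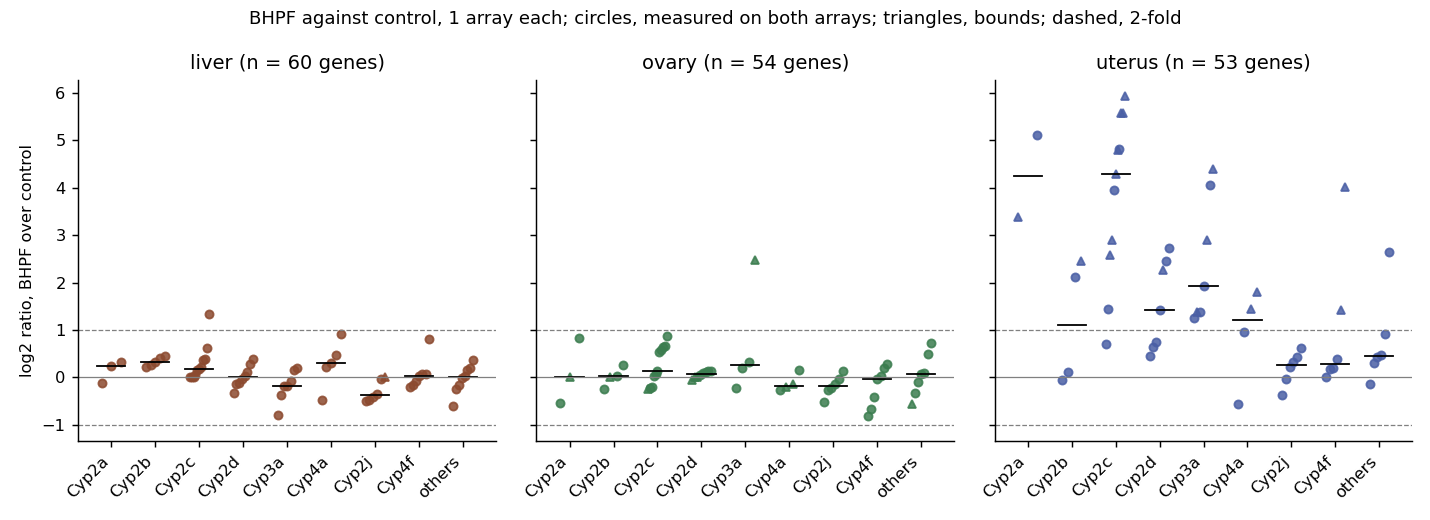
Log2 ratio of BHPF over control for each gene in liver, ovary and uterus, grouped by subfamily, with bars at the medians, dashed lines at 2-fold and triangles for bounds. In liver and ovary 1 gene each lies above the upper line, and in uterus 30 do, among them 10 of 11 in 2c and 7 of 7 in 3a.

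In liver the members differed little between BHPF and control. Of 60 evaluated, 1 was at least 2-fold higher, against 3.2% of all genes, and 0 were at least 2-fold lower, against 1.54%. The median log2 ratio was 0.05, and that of all genes was 0.00. When the 50th percentile replaced the 75th, the median of all liver genes moved to −0.30 and that of the members to −0.25, so small ratios in liver have no settled sign. The gene that was higher was *Cyp2c55*, a fatty acid hydroxylase and a target of CAR and PXR, with levels of −1.43 (control) and −0.09 (BHPF) and a log2 ratio of 1.34. It was 1.03 at the 50th percentile. In the ovary and the uterus its ratios were 0.12 and 0.70.

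The genes taken here as CAR and PXR targets had small ratios in liver. The median of the 10 was 0.35, with 1 at least 2-fold higher and 8 above 0. *Cyp2b10*, the classical CAR target, had levels of 3.04 and 3.50 and a ratio of 0.45. *Cyp3a11*, the main *Cyp3a* gene of adult mouse liver and a PXR target, had levels of 4.61 and 4.43 and a ratio of −0.18. Both lay short of 2-fold, in opposite directions. Of the same list, *Cyp2c54* had 0.61, *Cyp2c50* 0.39 and *Cyp2c37* 0.38. *Cyp3a13*, in contrast, had −0.79, the lowest ratio of the members in liver, and its probes gave −1.23 and −0.36. At the 50th percentile it was at −1.11, past 2-fold.

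The subfamily medians in liver stayed within a narrow range. They were 0.32 in 2b, 0.30 in 4a, 0.24 in 2a, 0.17 in 2c, 0.00 in 2d, −0.18 in 3a and −0.38 in 2j. All 11 members of 2c and all 5 of 2b lay above 0. At the 50th percentile 4 of 11 and 3 of 5 did, and the medians of 2a, 2c and 4a lay below 0. The 2j genes, epoxygenases of arachidonic acid, were below 0 for 5 of 6 under each scaling tried, from −0.50 for *Cyp2j8* to a bound of 0.00 for *Cyp2j11*.

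Within the subfamilies the extremes in liver were as follows. In 2a they were *Cyp2a22* (0.32) and *Cyp2a4* (−0.12), in 2b *Cyp2b10* and *Cyp2b23* (0.22), and in 2c *Cyp2c55* and *Cyp2c68* (0.00). In 2d, whose genes take part in drug metabolism, they were *Cyp2d40* (0.39) and *Cyp2d9* (−0.33), in 3a *Cyp3a16* (0.19) and *Cyp3a13*, and in 4a *Cyp4a29* (0.92) and *Cyp4a14* (−0.48). *Cyp4a29* was dim in every tissue, at −4.27 and −3.34 in liver. The PPAR-alpha targets *Cyp4a10* and *Cyp4a14*, both omega-hydroxylases of fatty acids, had ratios of opposite sign. The 3 probes of *Cyp4a10* ran from 0.05 to 1.20 around a gene ratio of 0.47.

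Sex-biased genes of adult liver showed no 2-fold difference in these immature females. The 5 female-biased members had a median ratio of 0.19 in liver. The male-biased *Cyp2d9* and *Cyp2u1* had −0.33 and −0.61. *Cyp2u1* had levels of −1.15 and −1.77.

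The genes that serve these enzymes did not pass 2-fold in liver either. Of 15 genes for electron transfer and haem synthesis, 0 were at least 2-fold different, and their median was 0.03. *Por* had levels of 3.54 and 3.78, and *Alas1*, the rate-limiting enzyme of haem synthesis, had 2.74 and 2.33. Of 20 transcription factors that act on P450 genes, 0 were at least 2-fold different in liver, with *Nr1i3*, which encodes CAR, at 0.35 and *Nr1i2*, which encodes PXR, at −0.02. Among 17 evaluated genes of other P450 families, *Cyp26a1* and *Cyp26b1*, which clear retinoic acid, were higher with BHPF by 2.01 and 1.55, and *Cyp21a1*, a steroid hydroxylase, was lower, at −1.06. On the same arrays 8 of 10 neutrophil markers were at least 2-fold lower with BHPF, with a median of −2.46 and summed levels of 55.5 and 23.8. Their part in the liver ratios was not tested.

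**Figure D3:**
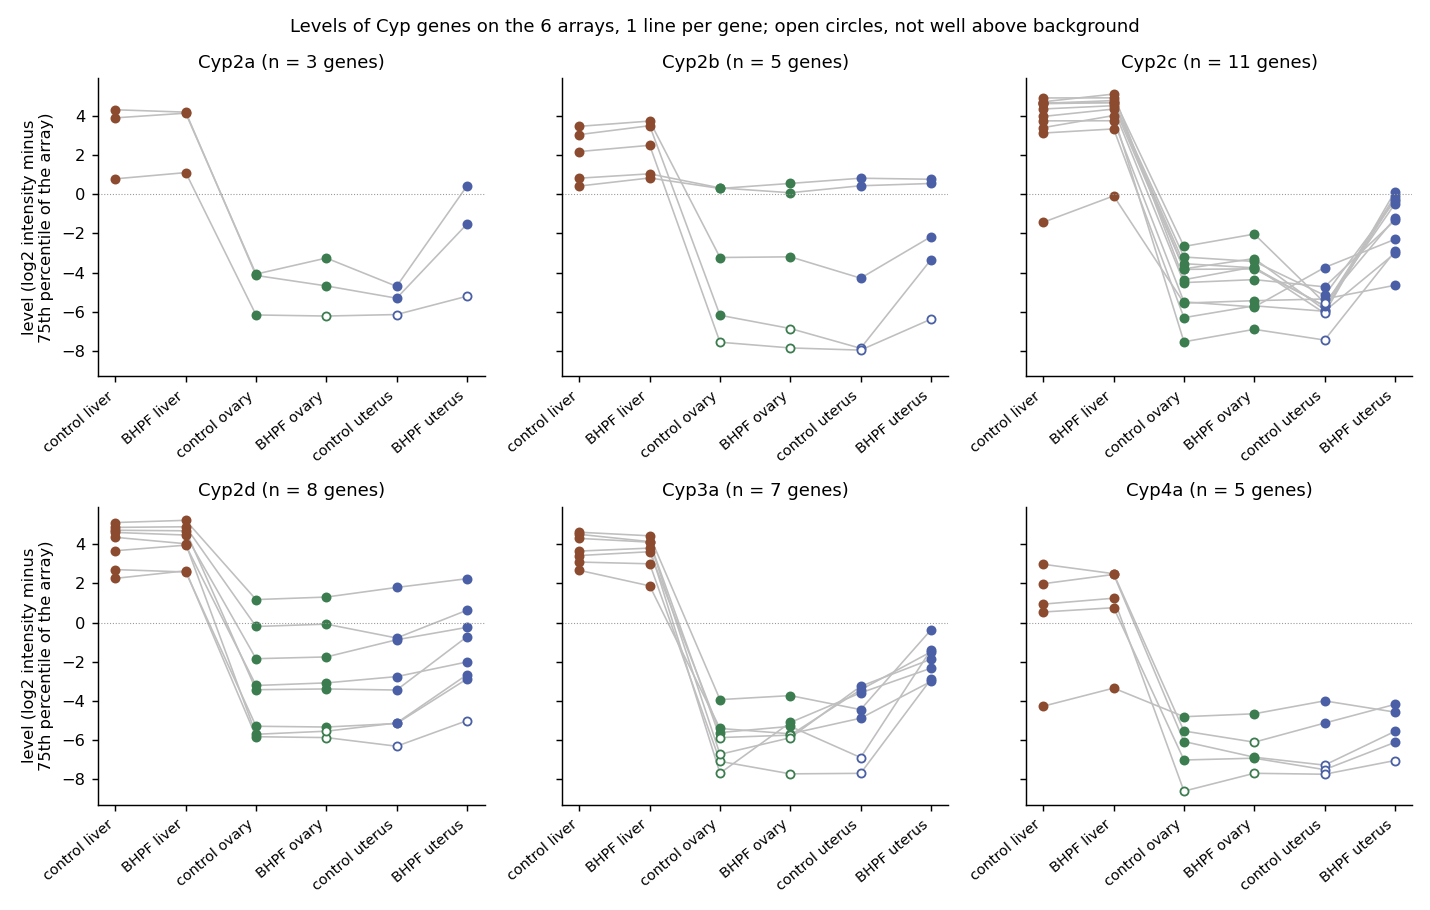
Level of each gene of subfamilies 2a, 2b, 2c, 2d, 3a and 4a on the 6 arrays, as log2 intensity minus the 75th percentile of the array, with 1 line per gene and open circles where no probe was well above background. Levels are to be compared along a line and not between genes. Most lines are flat between the liver arrays and between the ovary arrays, and rise from the control to the BHPF uterus array.

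In the ovary 1 of 54 evaluated members was at least 2-fold higher with BHPF, against 0.474% of all genes, and 0 were at least 2-fold lower, against 0.616%. The median was 0.03, and that of all genes was 0.01. The gene was *Cyp3a59*, at least 2.47 higher on the log2 scale, and it rested on 1 probe. That probe read −8.62, below background, in the control and −3.86 after BHPF, whereas the other probe of the gene was below background on both, at −6.76 and −6.34. With probes required to be well above background on both arrays, 0 members were higher.

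No other ovarian ratio reached 2-fold. The highest were *Cyp2c54* (0.88), *Cyp2a12* (0.82), a hydroxylase of bile acids and steroids, and *Cyp2r1* (0.73), the main vitamin D hydroxylase of the liver. The ratio of *Cyp2c54* rests on its 1 probe above background in ovary, which read −5.92 and −5.04. The lowest were *Cyp4f15*, at −1.02 and −1.84 with a ratio of −0.82, and *Cyp4f17*, at −0.59 and −1.25 with a ratio of −0.66.

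By subfamily, the ovarian extremes were *Cyp2a12* and *Cyp2a4* (−0.53) in 2a, *Cyp2b19* (0.26) and *Cyp2b23* (−0.25) in 2b, and *Cyp2c54* and *Cyp2c23* (−0.25, a bound) in 2c. In 2d they were *Cyp2d22* (0.13) and *Cyp2d34* (−0.07). In 3a they were *Cyp3a59* and *Cyp3a13* (−0.23), and in 4a *Cyp4a29* (0.15) and *Cyp4a31* (−0.27). Of 7 adipocyte markers 2 were at least 2-fold higher with BHPF in ovary, *Cfd* (2.05) and *Adipoq* (1.35), and 5 of 10 neutrophil markers were lower. Their part in the ovarian ratios was not tested.

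In the uterus 30 of 53 evaluated members were at least 2-fold higher with BHPF, against 2.27% of all genes, and 0 were at least 2-fold lower, against 0.823%. The median was 1.42, and that of all genes was 0.00. On the same array 21 of 22 hepatocyte markers were also 2-fold higher or more, at a median of 4.31. Their summed linear level was 3.90 on the control and 53.7 on the BHPF uterus array, at most 13.0 in ovary, and the number well above background went from 18 to 22. Albumin (*Alb*) went from −0.92 to 3.36 and transthyretin (*Ttr*) from −1.33 to 2.46. The part of these liver transcripts in the uterine differences of the P450 genes was not tested. The 8 uterus markers had a median ratio of 0.04.

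The differences rested partly on bounds. Of the 30 members, 17 had at least 1 probe that was below background on the control uterus array, and 13 were measured on both arrays with every evaluated probe. Over the 36 members measured in that way the median was 0.62. When only probes well above background on both arrays were used, 16 members were at least 2-fold higher.

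In subfamily 2c 10 of 11 genes passed 2-fold in uterus, at a median of 4.30, and 7 of the 10 are bounds. Of the 4 genes measured on both arrays 3 passed, at a median of 2.70. *Cyp2c50*, a fatty acid epoxygenase, was below background at −6.07 on the control uterus array and read 0.13 on the BHPF array, at least 5.94 higher. The retinoic acid hydroxylase *Cyp2c39* was below background at −5.70 and read −0.11, at least 5.59 higher, and *Cyp2c29*, which read −0.22, was at least 5.58 higher. Each of these genes had a level above 4 on the control liver array. *Cyp2c68* was measured on both uterus arrays, at −5.16 and −0.33, with a ratio of 4.82. *Cyp2c67* was at least 4.81 higher, and *Cyp2c70*, which makes the muricholic bile acids of mice, was at least 4.30 higher, at −5.54 and −1.23. The rest of the subfamily also passed. These were *Cyp2c38* (3.96), *Cyp2c54* (at least 2.89), *Cyp2c37* (at least 2.58) and *Cyp2c23* (1.44), and *Cyp2c55* stayed short of 2-fold at 0.70. The ratio of *Cyp2c38* rests on 1 of 2 probes, as the other was below background on both uterus arrays. Probes of near-identical paralogs in 2c, 2d, 3a and 4a may share transcripts, so their ratios are not independent of each other.

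All 7 members of 3a passed 2-fold in uterus, at a median of 1.93, and at 1.66 over the 4 measured on both arrays. *Cyp3a16*, known from fetal and neonatal liver, was below background at −6.89 on the control array and read −1.40 on the BHPF array, at least 4.41 higher. *Cyp3a11* read −4.44 and −0.38, with a ratio of 4.06, and its probes gave 3.22 and 4.91. *Cyp3a44* was at least 2.91 higher. The ratios of *Cyp3a25* (1.93), *Cyp3a57* (1.38), *Cyp3a13* (at least 1.38) and *Cyp3a59* (1.26) were smaller. The probes of *Cyp3a13* gave at least 2.28 and 0.47, and those of *Cyp3a59* gave 1.99 and 0.52. With only probes well above background on both arrays, *Cyp3a13* was at 0.47, short of 2-fold. *Cyp3a25* and *Cyp3a57* were well above background on both uterus arrays, at −3.43 and −3.25 in the control, and below background on both ovary arrays.

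In 2a the 2 evaluated genes were both higher. *Cyp2a12* read −4.70 on the control and 0.42 on the BHPF uterus array, with a ratio of 5.12, the largest of the members measured on both arrays. *Cyp2a4*, a steroid hydroxylase, was at least 3.39 higher. *Cyp2a22* was below background on both uterus arrays.

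In 2d 4 of 7 passed 2-fold, at a median of 1.42. *Cyp2d26* read −3.44 and −0.72 (2.72), *Cyp2d9* −5.13 and −2.66 (2.46) and *Cyp2d10* −0.79 and 0.63 (1.42). The probes of *Cyp2d34* disagreed in size. One gave at least 4.01 and the other 0.53, around a gene value of at least 2.27. *Cyp2d11* read 1.79 and 2.24, with a ratio of 0.45, and *Cyp2d22* had 0.75. In 2b the liver-type genes *Cyp2b10* (at least 2.46) and *Cyp2b13* (2.11) were higher, whereas *Cyp2b19* and *Cyp2b23* had −0.05 and 0.12. *Cyp2b23* differed between liver and ovary by a fitted 0.73 (SE 0.16, limma adjusted p = 0.0209).

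In family 4 fewer members passed. Of 4a, 2 of 4 did, *Cyp4a31* (at least 1.81) and *Cyp4a10* (at least 1.45), while *Cyp4a14* had 0.95 and *Cyp4a29* −0.57. The ratios of *Cyp4a31* and *Cyp4a10* each rest on 1 of 3 probes, as the others were below background on both uterus arrays. Of 4f, 2 of 6 did, *Cyp4f14* (at least 4.03, from −6.02 to −1.78) and *Cyp4f15* (at least 1.42). *Cyp4f13*, *Cyp4f16*, *Cyp4f17* and *Cyp4f18* had ratios between 0.00 and 0.38. *Cyp4b1*, a fatty acid hydroxylase known from lung, had −0.14. The remaining gene that passed was *Cyp2e1*, which oxidizes ethanol and small solvents, at −1.99 and 0.65 with a ratio of 2.65. *Cyp2f2* had 0.91, the 2j genes had −0.38 to 0.61 and *Cyp2s1* had 0.31.

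The members at least 2-fold higher in BHPF uterus were all among those much higher in control liver than in control ovary. The control liver and control ovary arrays, which take no part in the uterine ratio, split the genes. Members at least 16-fold higher in control liver than in control ovary are called liver-high here. The split does not follow the liver level itself. *Cyp2d11* and *Cyp2j8*, at 5.10 and 4.08 in control liver, fell outside the liver-high members, and *Cyp2c55*, at −1.43, fell among them. Of the 43 members at least 16-fold higher in control liver than in control ovary, 38 were evaluated in uterus and 30 passed 2-fold, at a median of 2.37. This holds the 17 genes with a bound, whose probes entered through the BHPF array, where they were high. Of the 21 measured on both arrays 13 passed, at a median of 1.42. Of the 9 members between 4-fold and 16-fold, 7 were evaluated and 0 were higher, with a median of 0.18. Of the 9 below 4-fold, 8 were evaluated and 0 were higher, with a median of 0.21, and the genes of both these groups were measured on both arrays. A gene with a high control uterus level needs a larger linear rise to reach 2-fold. These counts therefore cannot show whether a rise was confined to the liver-high members. In liver the median of the same 43 genes was 0.06, and in ovary that of the 37 evaluated ones was 0.04. The liver-high members short of 2-fold in uterus were *Cyp2c55*, *Cyp2d12* (0.63), *Cyp2d22*, *Cyp2f2*, *Cyp2j5* (0.61), *Cyp2r1* (0.47), *Cyp4a14* and *Cyp4v3* (0.43).

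**Figure D4:**
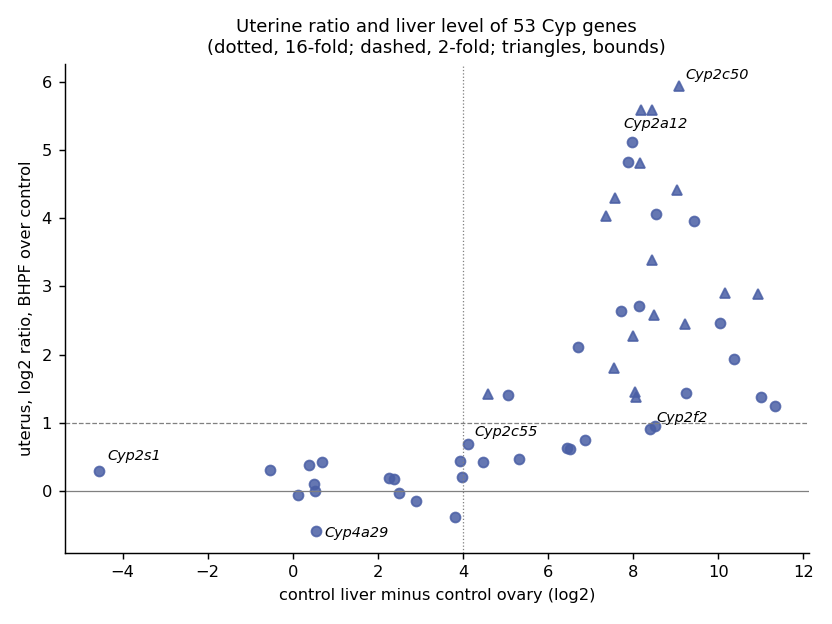
Log2 ratio of BHPF over control in uterus against the log2 difference between control liver and control ovary, for the 53 members evaluated in uterus, with triangles for bounds. The 30 genes above the dashed 2-fold line all lie to the right of the dotted 16-fold line, and the 15 genes to its left lie between −0.57 and 0.45.

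The size of the uterine difference was small beside the liver level. The linear level on the BHPF uterus array minus that on the control uterus array was, as a percentage of the control liver level, 1.34% in the median over the 43 liver-high members. For 5 of them, *Cyp2a22*, *Cyp2b9*, *Cyp2d40*, *Cyp2g1* and *Cyp4a32*, both uterus levels were below background, so their values are differences of background readings. Over the other 38 the median was 1.48%, from 0.268% for *Cyp4f15* to 8.71% for *Cyp2a12*. Over the 22 hepatocyte markers it was 5.81% in the median, from 0.537% for *Fga* to 15.6% for *Ttr*. By subfamily these 38 had medians of 2.82% in 2c (11 genes), 1.45% in 2d (6 genes), 1.43% in 3a (7 genes) and 0.375% in 4a (3 genes), and the 2 genes each of 2a and 2b had 1.62% and 8.71%, and 1.14% and 1.55%. The ranges of the P450 genes and of the markers overlapped. Outside the liver-high members, the 7 evaluated ones between 4-fold and 16-fold had excesses on both sides of 0. They were 3.65% for *Cyp4f17*, 3.64% for *Cyp2d11*, 3.10% for *Cyp4f13* and 1.42% for *Cyp2j8*. *Cyp2j6*, *Cyp4b1* and *Cyp2j13* had −0.488%, −2.51% and −2.67%. The summed linear level of the 61 members was 20.2 (control) and 37.0 (BHPF) in uterus, 19.1 and 19.4 in ovary, and 700.03 and 715 in liver.

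**Figure D5:**
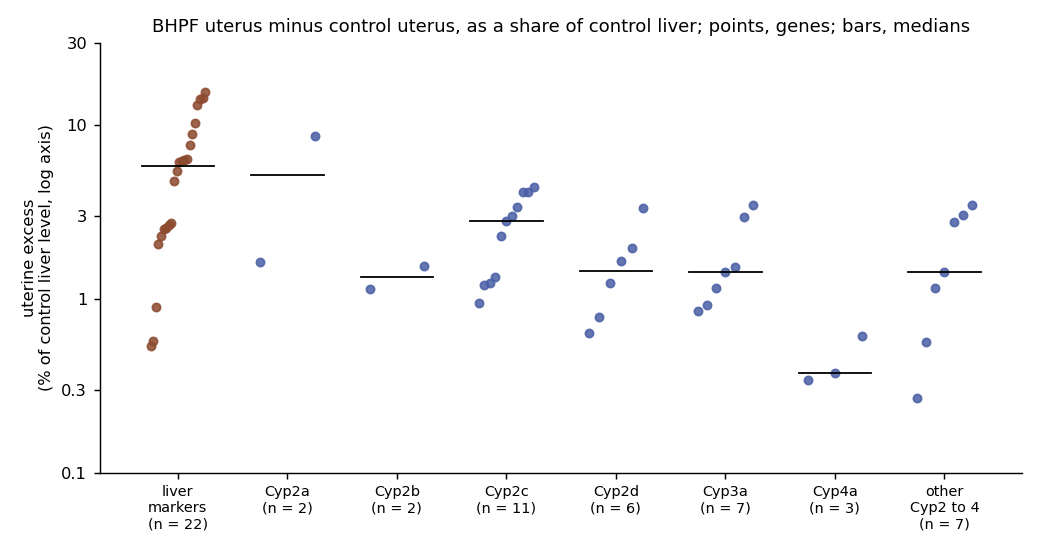
Linear level on the BHPF uterus array minus that on the control uterus array, as a percentage of the control liver level on a log axis, for 22 hepatocyte markers and for the 38 liver-high members evaluated in uterus, by subfamily, with bars at the medians. The markers have a median of 5.81%, 2c one of 2.82% and 4a one of 0.375%.

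Genes that act with these enzymes were also compared in uterus. Of 14 evaluated genes for electron transfer and haem synthesis, which are broadly expressed, 0 were at least 2-fold different, and *Por* had 0.32. Of 19 transcription factors 2 were higher, *Hnf4a* (at least 2.90, from −7.62 to −2.90, with 4.11 in control liver) and *Nr1i3* (1.39, from −4.46 to −3.07). Of other P450 families *Cyp1a2* (at least 3.42), *Cyp7a1* (at least 2.05), the rate-limiting enzyme of bile acid synthesis, and *Cyp26a1* (1.58) were higher. *Cyp1a2* and *Cyp7a1* were 4.13 and 3.31 in control liver, whereas *Cyp26a1* was −1.45 there. Adipocyte markers moved the other way, with 3 of 6 at least 2-fold lower and a median of −1.05, led by *Adipoq* (−3.31) and *Cfd* (−2.71), and 4 of 10 neutrophil markers were lower. The part of these cell types in the uterine ratios was not tested.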

How the data were processed

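Total RNA was labelled with Cy3 and hybridized to 6 one-colour Agilent arrays, 1 for each tissue and treatment. The authors scanned them and deposited Feature Extraction files, whose processed intensity per spot is on a linear scale, background-subtracted, detrended within the array and not normalized between arrays. The files' header gives version 11.5.1.1 and the submitters' notes 9.1. A table of log2 values was deposited too, equal to the log2 intensity minus 1 constant per array for 100% of 36578 to 41674 probes within 0.001. Column medians ran from −1.66 to −1.17. The 2 uterus columns of this table hold values of the opposite array, so the scanner files were used as labelled, and directions in uterus oppose that table.

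Outlier spots were left out, log2 intensities of repeated spots were averaged, and the 75th percentile was subtracted per array. Symbols came from probe accessions matched to RefSeq GRCm38.p6, for 26762 of 55681 probes. A gene's level is the mean of its probes well above background (Agilent's flag, on at least 1 spot) on any array, and 16 members had several probes. A probe below background on 1 array of a tissue was set against the higher of its own level and the lowest level well above background there, which gives a bound. A gene called different was at least 2-fold apart, with no test, since each group was 1 array. Gene by gene over 6 arrays, limma 3.58.1 (R 4.3.3) fitted tissue and treatment, with Benjamini-Hochberg adjustment over 17576 genes and 2 residual degrees of freedom. These hold the treatment differences that the tissues do not share, and not the variation between animals or pools. Below background, measured levels entered this fit. The fit was tested on simulated data.

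Members, lists, rules and alternatives were chosen with earlier results of these data known. Named genes are all members at least 2-fold different in a tissue, the extremes of 6 subfamilies in liver and ovary, the members with the largest tissue differences, and the largest 2-fold differences of each list. Alternatives were normexp (offset 50, on the median intensity, as the files hold no mean), the 50th percentile, the 75th percentile of well-measured probes (above background on every array), quantile normalization, the authors' table, probes well above background on both arrays, measured values in place of bounds, the probe with the highest mean, a 4-fold threshold, genes well above background on all arrays, and a fit without treatment. The authors' table with the uterus columns exchanged, uterus without the liver-high members, and fits without the BHPF uterus array were added after seeing the data. One further promoter motif was searched and is not reported here. The number of arrays limits the precision.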

Additional observations from a re-analysis of the deposited data

How the results depend on the processing

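Each group held 1 array, so spot noise was measured but not the variation between pools. No paired analysis was possible because each group has 1 array and the labels carry no shared replicate number. Of 174 values for the comparisons, 140 kept their direction and size under the alternatives. In liver, 1 member was lower at the 50th percentile, where the median was −0.25, and 1 with the probe of the highest mean, and 0 were higher at 4-fold. In ovary, 1 member was lower with measured values in place of bounds and in the authors' table (columns as headed or exchanged), and 0 were higher with the probe of the highest mean or with probes that passed background on both arrays. The median in uterus was 1.19 after normexp. With probes well above background on both arrays, 16 members were higher and the median was 0.63. Without the members at least 16-fold higher in control liver, 0 were higher and the median was 0.18.

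Limited to genes well above background on all 6 arrays, 29 members were higher in liver than in ovary and 29 than in uterus. That fit held 13723 genes and fewer members than the main fit, so its counts cannot be set beside those of the main fit. Among those genes 1 member was higher in ovary than in liver, as was 1 in the authors' table with columns as headed or exchanged. For ovary against uterus, 1 member was higher in ovary among those genes, 2 in the authors' table with columns as headed or exchanged and 11 without the BHPF uterus array, which left 3 higher in uterus. With the 75th percentile of well-measured probes, above background on every array, 3 were higher in uterus than in liver. The cause of these moves was not tested. The uterine excess was 1.50% after normexp, 0.851% at the 50th percentile, 1.73% with the 75th percentile of well-measured probes, 1.68% after quantile normalization and 1.59% in the authors' table with the uterus columns exchanged.

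With the columns of the authors' table as headed, by its construction, 0 members were higher and 30 lower in uterus, with a median of −1.44 and an excess of −1.59%. The log2 ratios in uterus were then −5.12 for *Cyp2a12*, −3.78 for *Cyp2a4*, −4.52 for *Cyp2b10*, −2.11 for *Cyp2b13* and −2.65 for *Cyp2e1*. In 2c they were −1.44 for *Cyp2c23*, −5.67 for *Cyp2c29*, −3.39 for *Cyp2c37*, −3.96 for *Cyp2c38*, −5.59 for *Cyp2c39*, −6.20 for *Cyp2c50*, −4.53 for *Cyp2c54*, −5.22 for *Cyp2c67*, −4.82 for *Cyp2c68* and −4.30 for *Cyp2c70*. In 2d they were −1.41 for *Cyp2d10*, −2.72 for *Cyp2d26*, −2.27 for *Cyp2d34* and −2.46 for *Cyp2d9*. In 3a they were −4.06 for *Cyp3a11*, −1.87 for *Cyp3a13*, −5.49 for *Cyp3a16*, −1.93 for *Cyp3a25*, −4.80 for *Cyp3a44*, −1.38 for *Cyp3a57* and −1.26 for *Cyp3a59*. In family 4 they were −2.05 for *Cyp4a10*, −2.72 for *Cyp4a31*, −4.25 for *Cyp4f14* and −1.56 for *Cyp4f15*.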
